A study of Mus musculus with 27 samples.

Results

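Kinesins are motor proteins that walk along microtubules, and this report describes their genes in the mouse optic stalk. The members were the protein-coding genes whose symbol starts with Kif followed by a digit, which were 39 of the 55487 genes counted. RNA was sequenced from laser-captured pieces of the optic stalk at embryonic day 14, the neuroepithelial tube that carries the axons of retinal ganglion cells out of the eye and later forms the astrocytes of the optic nerve. Each of 9 embryos gave a dorsal piece, a ventral piece and a piece of the axon bundle, which makes 27 libraries. In the 5 Smarcc1-DCT-cKO embryos (mutant), Dct-Cre removed a floxed Smarcc1 (also called Baf155), which encodes a scaffold protein of SWI/SNF, a complex that remodels chromatin, and the 4 controls were littermates without Dct-Cre. The mouse lines, with the Z/EG reporter line among them, had a C57Bl6/J background. Per the study's reporter tracing, Dct-Cre acts by this age in the pigment epithelium, the ciliary margin and astrocyte progenitors of the stalk around the axons. The embryo was the replicate, and each library was 1 embryo's piece of 1 region, captured from stained cryosections.

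Motors of the kinesin family fall into groups by their work. Transport kinesins carry vesicles, mitochondria and other cargo toward the plus ends of microtubules, which in an axon point away from the cell body. Mitotic kinesins build the spindle, move chromosomes or cut the bridge between daughter cells, and are mostly made in dividing cells. The symbol rule took in 11 mitotic kinesins, 13 transport kinesins, 6 kinesins that regulate microtubule dynamics, 6 of the cilium and 3 others. One of those 3, Kif1bp, encodes a protein that binds kinesins and is no motor. Genes were tested where 3 or more libraries had over 10 counts, which left 16330 genes. All 11 mitotic kinesins passed, with 12 of 13 transport, 5 of 6 microtubule dynamics, 4 of 6 cilium kinesins and Kif1bp alone of the others, 33 in all. Of the 6 members below this limit, Kif12 and Kif28 had no count in any library, Kif17 and Kif2b had at most 3 and 2 counts, Kif19a reached 4.90 CPM, and Kif9 reached 33.2 CPM with counts in 6 libraries. CPM is a gene's count per M counts of its library (M, 1e6). A count of 0 allows a level of up to 3 counts, which was 0.0883 to 0.275 CPM in these libraries, and this covers counting error only.

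Library totals ran from 10.9 to 34.0 M counts. The axon libraries differed from the stalk libraries (dorsal and ventral together) in 2 measures, though the ranges overlapped. In the axon libraries 9225 to 14118 genes had a count, against 10881 to 16810 in the stalk. Of the counts, 7.49 to 15.4% were mitochondrial in the axon libraries, against 3.72 to 7.63% in the stalk. Smarcc1 itself was 144 ± 97.9 CPM (SD, n = 4) in control and 54.5 ± 44.9 (n = 5) in mutant dorsal pieces. It was 130 ± 56.9 and 33.5 ± 19.6 CPM in ventral pieces, and 124 ± 88.7 and 18.3 ± 18.2 CPM in the axon pieces. A set of 18 axon and ganglion cell markers checked the labelled region. Its summed level was 3115 to 6340 CPM in the axon libraries and 305 to 2802 CPM in the stalk libraries, carried mainly by Map1b, Nefm and Sncg. Of 16 tested, 7 in controls and 9 in mutants were lower in axons than in dorsal pieces, among them Tubb3, Dcx, Elavl3, Elavl4 and Isl1, whose means in both axon groups lay below those in control dorsal pieces. The highest stalk values were both from control embryo 2, at 2569 CPM in its dorsal and 2802 CPM in its ventral piece. Nefh and Pou4f2 were at 0 in every axon library, Elavl3 and Elavl4 in every mutant and Pou4f1 in every control one. Markers of stalk and astrocyte progenitors, 12 in number, summed to 3442 to 8416 CPM in the axon libraries and 1089 to 5460 CPM in the stalk libraries. In such pieces, fewer cells of a type and less RNA per cell cannot be told apart.

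Sequence just upstream is shown for 5 of the members on which the 2 patterns described here rest, Kif1a and Kif5c for the level in the axon pieces, and Kif11, Kif22 and Kif20b for the level in the mutant ventral pieces. Kif4, which belongs with the latter, had no bases free of annotated exons in the 250 upstream, so none are shown for it. The windows are the bases before the RefSeq start site on mm10 (GRCm38.p6), up to 250 of them, without annotated exon bases. Capitals mark CCAAT, the letters bound by NF-Y, and TTTGAA, the letters of the cell cycle homology element found in many mitotic genes, on either strand (ATTGG and TTCAAA in reverse).
Kif11 (chr19:37376132-37376381, plus strand): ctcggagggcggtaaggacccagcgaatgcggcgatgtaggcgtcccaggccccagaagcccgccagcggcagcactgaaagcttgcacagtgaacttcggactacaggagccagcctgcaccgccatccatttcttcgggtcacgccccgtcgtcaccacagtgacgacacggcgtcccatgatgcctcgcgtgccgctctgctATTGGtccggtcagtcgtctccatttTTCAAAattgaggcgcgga
Kif22 (chr7:127042472-127042670, minus strand): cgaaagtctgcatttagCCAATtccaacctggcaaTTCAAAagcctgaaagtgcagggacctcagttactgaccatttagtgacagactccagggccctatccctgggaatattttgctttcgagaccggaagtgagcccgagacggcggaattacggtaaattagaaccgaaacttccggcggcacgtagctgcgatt
Kif20b (chr19:34922108-34922357, plus strand): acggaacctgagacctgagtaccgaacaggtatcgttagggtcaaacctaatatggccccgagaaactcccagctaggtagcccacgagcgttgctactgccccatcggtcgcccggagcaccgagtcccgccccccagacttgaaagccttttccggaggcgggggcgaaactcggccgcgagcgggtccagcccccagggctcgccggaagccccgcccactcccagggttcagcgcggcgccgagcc
Kif1a (chr1:93101952-93102124, minus strand): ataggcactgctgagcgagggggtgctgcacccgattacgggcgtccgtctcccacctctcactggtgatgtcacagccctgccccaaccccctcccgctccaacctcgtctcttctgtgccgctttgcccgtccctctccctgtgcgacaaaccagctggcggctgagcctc
Kif5c (chr2:49619036-49619285, plus strand): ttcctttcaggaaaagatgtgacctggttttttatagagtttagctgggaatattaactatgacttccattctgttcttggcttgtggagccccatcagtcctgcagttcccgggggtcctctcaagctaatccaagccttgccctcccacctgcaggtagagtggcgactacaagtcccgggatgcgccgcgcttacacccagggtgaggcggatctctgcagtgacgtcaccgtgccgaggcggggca
Kif11 and Kif22 held 1 match of each motif in these windows, and the other windows held none. The Kif22 and Kif1a windows end 52 and 78 bases before the start site. Over its full 250 upstream bases Kif22 held more than 1 CCAAT. The matches in Kif11 and Kif22 do not overlap each other. Over the full 250 upstream bases, CCAAT stood in 6 of 10 promoters of mitotic kinesins, in 4 of 12 of transport kinesins and in 33.8% of the 32851 RefSeq promoters, while TTTGAA stood in 5 of 10, 1 of 12 and 15.99%. The transport promoters with CCAAT were those of Kif1b, Kif3a and Kif3b, where Kif1b was counted with 2 overlapping windows. The one transport match of TTTGAA was in a second, downstream promoter of Kif1a.

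Kif1a, the fast axonal motor that carries precursors of synaptic vesicles, lies on chr1:93015464-93101951 (mm10, minus strand), and its level separated the axon pieces from the stalk. In control axons it measured 1455, 2022, 2814 and 822 CPM in embryos 1 to 4, and in mutant axons 1957, 1574, 1985, 1973 and 1074 CPM in embryos 1 to 5. Control ventral pieces had 133, 387, 391 and 136 CPM, and control dorsal pieces 41.2, 152, 74.3 and 78.7 CPM. Every axon library lay above every stalk library. Mutant ventral pieces had 452, 87.7, 493, 264 and 216 CPM, and mutant dorsal pieces 277, 26.7, 330, 14.8 and 63.1 CPM. From lowest to highest, the group means were 86.6 ± 46.8 CPM in control dorsal, 142 ± 150 in mutant dorsal, 262 ± 147 in control ventral, 303 ± 169 in mutant ventral, 1713 ± 397 in mutant axons and 1778 ± 847 in control axons (SD, n = 4 for control and 5 for mutant). In this order each group overlapped its neighbour, except that mutant axons lay wholly above mutant ventral. Within an embryo the ventral piece exceeded the dorsal piece in 4 of 4 controls and in 5 of 5 mutants. Per kb of exon, Kif1a was the highest kinesin of both axon groups, at 191 and 184 CPM per kb in control and mutant, and stood behind 2 others in both ventral groups, at 28.1 and 32.4.

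Kif5b and Kif5c, heavy chains of kinesin-1, which with the light chains form the conventional motor of anterograde transport, were the next kinesins per kb of exon in both axon groups. Kif5c, the neuronal heavy chain on chr2:49619298-49774778 (plus strand), had 184, 450, 627 and 189 CPM in control and 332, 380, 655, 286 and 393 CPM in mutant axons. Its stalk libraries ran from 0 to 106 CPM. The axon libraries therefore did not overlap the stalk libraries, as for Kif1a. Kif5b, the heavy chain made in most tissues, had 402, 280, 261 and 416 CPM in control and 500, 381, 728, 748 and 412 CPM in mutant axons. Its dorsal pieces had 278, 167, 393 and 215 CPM in controls and 161, 116, 204, 227 and 180 CPM in mutants, and its ventral pieces 135, 221, 127 and 123 CPM in controls and 102, 85.3, 129, 331 and 143 CPM in mutants. Kif5b thus overlapped between axon and stalk libraries, at 261 to 748 against 85.3 to 393 CPM, while within each mutant embryo the axon piece was the highest of the 3. Kif1b, which moves mitochondria and vesicle precursors, measured 134, 313, 351 and 228 CPM in control and 254, 214, 521, 321 and 324 CPM in mutant axons. Its stalk libraries reached from 65.0 to 312 CPM, so they overlapped the axon libraries.

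**Figure D1:**
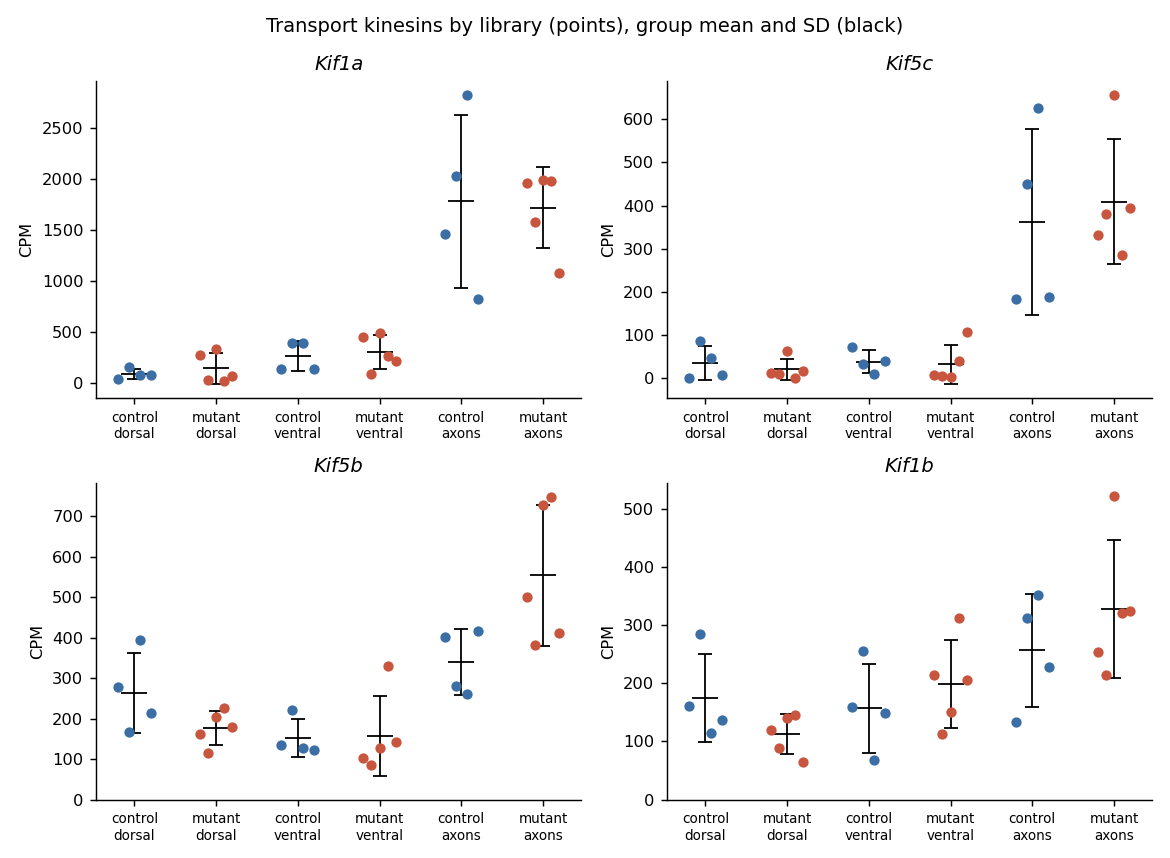
Level of Kif1a, Kif5c, Kif5b and Kif1b in CPM in each of the 27 libraries, by region and genotype, with points for libraries and bars for the mean ± SD (n = 4 control and 5 mutant embryos). The 9 axon libraries lie above all 18 stalk libraries for Kif1a (822 to 2814 against 14.8 to 493 CPM) and Kif5c (184 to 655 against 0 to 106 CPM), and overlap them for Kif5b and Kif1b.

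Over the 33 tested kinesins, those 2 were the ones with all 9 axon libraries above all 18 stalk libraries, against 0.135% of all 16330 genes, and none lay wholly below, against 0.0122%. The other 31 overlapped, among them all 11 mitotic kinesins. The regions were then compared within each genotype by edgeR's quasi-likelihood test with the embryo as a block. Called genes had both a p under 0.05 after Benjamini-Hochberg adjustment over all genes tested and a log2 fold change beyond 0.58 in either direction. In the mutants Kif5b was the 1 of 33 kinesins called higher in axons than in dorsal pieces (log2 fold change 1.80 ± 0.21 SE, adjusted p = 0.0129), where 0.266% of all genes were called. Against ventral pieces 2 of 33 were called, Kif1a (2.87 ± 0.32, adjusted p = 0.0169) and Kif5b (2.12 ± 0.25, adjusted p = 0.0197), where 0.259% of all genes were called. These 2 comparisons share the mutant axon libraries. The calls depended on the number of embryos: without any 1 of the 5 mutant embryos, Kif5b was not called against dorsal (adjusted p 0.0715 to 0.113) nor against ventral pieces (0.0902 to 0.145), and Kif1a was called against ventral pieces only without mutant embryo 2 (0.0135 to 0.172). Without mutant embryo 4, Kif5c was called against dorsal pieces.

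In the controls, edgeR called 0 of 33 kinesins between axons and dorsal pieces, against 0.0126% of all genes, and 0 of 32 between axons and ventral pieces, against 0% of all genes. The log2 fold change of Kif1a was 4.58 ± 0.41 over control dorsal (adjusted p = 0.0563) and 3.01 ± 0.23 over control ventral pieces (adjusted p = 0.0594), beside 4.61 ± 0.71 over mutant dorsal pieces (adjusted p = 0.0519). For Kif5c the same 4 fold changes were 4.89 ± 1.49 and 3.46 ± 0.86 in controls and 5.42 ± 1.22 and 5.25 ± 1.08 in mutants (adjusted p 0.227 to 0.902). Kif1b was 1.72 ± 0.33 over dorsal (adjusted p = 0.145) and 0.91 ± 0.31 over ventral pieces in mutants (adjusted p = 0.573). At an unadjusted p under 0.05, 2 kinesins passed between control axons and dorsal pieces (3.93% of all genes), 3 between control axons and ventral pieces (2.64%), 6 between mutant axons and dorsal pieces (8.32%) and 4 between mutant axons and ventral pieces (6.99%). All of these were transport kinesins, and all but Kif16b were higher in axons. Kif16b, an endosomal motor, was at -9.28 ± 3.43 in mutant axons against dorsal pieces (adjusted p = 0.541). The size of this fold was not measured, as 4 of the 5 mutant axon libraries were at 0. The axon piece of mutant embryo 4 had 66.89 CPM, above the 61.99 CPM of its dorsal piece. Mean levels of Kif16b were 13.4 ± 29.9 CPM in mutant axons and 30.7 ± 23.5 CPM in mutant dorsal pieces.

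The order within embryos was counted as well. All 5 mutant embryos had more Kif1a, Kif1b, Kif5b and Kif5c in the axon than in the dorsal piece, and no other kinesin did so (2.44% of all genes). The same 4 were higher than in the ventral piece in all 5 mutants (2.18% of all genes). In the other direction, Kif13a was lower in the axon than in the dorsal piece of all 5 mutants (7.79% of all genes), and Kif11 was lower than in the ventral piece (7.53%). In the controls 4 kinesins were higher in axons than in the dorsal piece of every embryo (4.72% of all genes), Kif1a and Kif5c with Kif7 and Kif14, and 5 were higher than in the ventral piece (3.4% of all genes), Kif1a, Kif1c, Kif5b and Kif5c with Kif14. Lower in axons in every control were 2 against dorsal pieces (Kif16b and Kif26a, 8.69% of all genes) and 3 against ventral pieces (Kif2a, Kif3b and Kif24, 9.12%). For 4 of these kinesins the order in 1 embryo or more was not measured, as both values lay near the floor. In control embryo 3, Kif14 had 0.0596 CPM in axons and 0 in both stalk pieces. There Kif7 had 0.239 CPM in axons and 0.177 in the dorsal piece, and Kif24 0 and 0.0571 in the ventral piece. In control embryo 1, Kif26a had 0 CPM in axons and 0.0832 in the dorsal piece. Between the stalk pieces, 1 kinesin in controls (Kif1a, where 6.1% of all genes did so) and 4 in mutants (Kif1a, Kif1b, Kif22 and Kif4, where 3.78% did) were higher ventrally in every embryo. Lower ventrally in every embryo were 2 kinesins in controls (Kif1c and Kif21a, 4.76% of all genes) and 1 in mutants (Kif2a, 3.21%). DESeq2 called more kinesins than edgeR, as it did genes in general: 3 of 33 between control axons and dorsal pieces (Kif1a, Kif5a and Kif5c, 6.68% of all genes), 5 of 32 between control axons and ventral pieces (Kif1a, Kif5c, Kif1c, Kif7 and Kif18b, 6.3%), 7 between mutant axons and dorsal pieces (18.4%) and 8 between mutant axons and ventral pieces (17.1%). Kif1c, Kif18b, Kif24 and Kif26a are named here after their values were seen.

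The axon and ganglion cell markers did not move one way. Of the 16 tested, 7 were above 0 and 9 below in mutant axons against dorsal pieces (median log2 fold change -0.62), and 9 above and 7 below against ventral pieces (median 1.67). EdgeR called Map1b higher in mutant axons than in dorsal pieces, and Map1b and Nefm higher than in ventral pieces. Map1b, a microtubule-associated protein of growing axons, was 1773 ± 349 CPM in control and 2635 ± 645 CPM in mutant axons, and the neurofilament gene Nefm was 957 ± 211 and 1290 ± 375 CPM. Tubb3, a neuronal tubulin, was 13.5 ± 16.7 CPM in control and 0.0266 ± 0.0595 CPM in mutant axons, below its 100.1 ± 122 and 67.1 ± 49.9 CPM in dorsal pieces. The summed mesenchyme markers ran from 400 to 2526 CPM in axon and 55.4 to 10389 CPM in stalk libraries, and the summed erythroid markers from 609 to 33104 and 2.27 to 24343 CPM. The part of the other cells, of the lower number of genes and of the mitochondrial share in the kinesin levels was not tested.

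The remaining transport kinesins did not share the pattern. Kif5a, the kinesin-1 heavy chain of mature neurons, had 7.23, 6.98, 24.0 and 29.3 CPM in control axons and 0, 18.5, 0, 141 and 16.8 CPM in mutant axons. It was at 0 in all 5 mutant dorsal pieces. Since 2 of the 5 mutant axon libraries were also at 0 and mutant embryo 4 carried most of their mean, no fold is given (adjusted p = 0.541 against dorsal pieces). Kif3a and Kif3b, the motor pair of kinesin-2 that also builds cilia, had no call between regions. Kif3a was above 3 counts in all libraries but 1, from a mutant axon piece, and had group means from 79.4 ± 81.9 CPM in mutant axons to 121 ± 44.8 CPM in control ventral pieces, and per kb of exon it was the highest kinesin of the control ventral pieces at 33.7 CPM per kb. Kif3b, at 0 in 4 libraries, 3 of them mutant axons, had group means from 8.22 to 47.4 CPM, and Kif3c, which shares 40.7% of its exon bases with antisense genes, from 1.95 to 9.17 CPM. Kif13a, a motor of endosomes and melanosomes, was 52.6 ± 51.3 CPM in mutant and 7.90 ± 9.32 CPM in control dorsal pieces (log2 fold change 3.83 ± 1.82, unadjusted p = 0.0577).

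The summed mitotic and transport kinesins set the regions against each other. The 13 transport kinesins summed to 1910 to 4259 CPM in the 9 axon libraries and 499 to 1303 CPM in the 18 stalk libraries, with no overlap. The 11 mitotic kinesins summed to 502 to 1337 CPM in axons and 530 to 1712 CPM in the stalk, which overlapped almost throughout. Kif1a supplied 43.0 to 66.1% of the transport sum in the axon libraries, 20.1 to 50.4% in control ventral, 15.8 to 59.2% in mutant ventral, 6.05 to 13.4% in control dorsal and 1.99 to 39.0% in mutant dorsal pieces. The log2 ratio of the mitotic to the transport sum was -1.98 ± 0.69 in control and -2.05 ± 0.61 in mutant axons. In the stalk it was -0.15 ± 0.74 in control dorsal, 0.43 ± 0.47 in mutant dorsal, -0.12 ± 0.66 in control ventral and 0.63 ± 0.48 in mutant ventral pieces. All 9 axon libraries, at -3.02 to -1.09, lay below all 18 stalk libraries, at -1.04 to 1.04. The gap was narrow, and the lowest stalk ratio was that of control dorsal embryo 2, whose transport sum of 1132 CPM was the highest of its group. Without Kif1a the mean ratio was -0.69 in control and -0.93 in mutant axons, and 1.27 in mutant ventral pieces. Both the ratios and the transport sums of single axon and stalk libraries then overlapped, so their separation rested on Kif1a. Sums are led by the most abundant genes. Where each gene counts alike, as the mean log2(CPM + 1) of the mitotic less that of the transport kinesins, the sign turned to 0.40 in control and 0.32 in mutant axons, below the 1.02 to 2.46 of the stalk groups. These are descriptions, and no test was made of them.

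**Figure D2:**
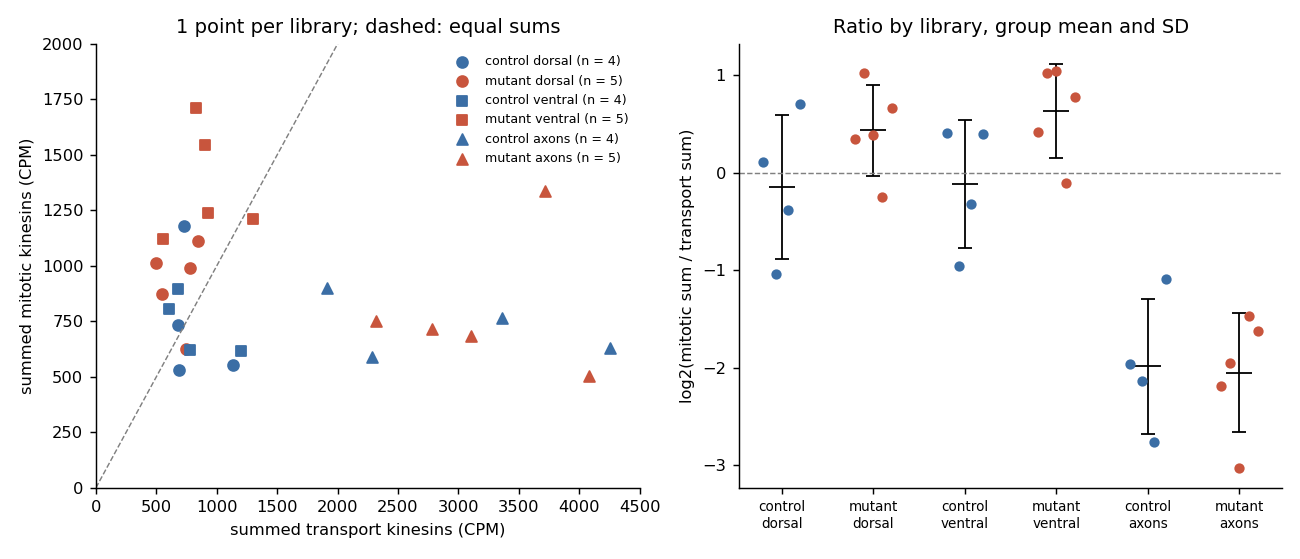
Left, summed CPM of the 11 mitotic against the 13 transport kinesins in each library, and right, the log2 ratio of the mitotic to the transport sum by region and genotype (points are libraries, bars the mean ± SD, n = 4 control and 5 mutant). The axon libraries have transport sums of 1910 to 4259 CPM and mitotic sums of 502 to 1337 CPM, which overlap the 530 to 1712 CPM of the stalk. In mutants the mean mitotic sum was 798 ± 316 CPM in axons and 1366 ± 250 CPM in ventral pieces. The axon ratios of -3.02 to -1.09 lie below those of every stalk library, although a difference of mean log2 values is above 0 in the axons (0.40 and 0.32). Without Kif1a the axon and stalk ratios overlap.

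The mitotic kinesins by themselves did not mark the axons off. In the controls their median log2 fold change was 0.06 against dorsal and 0.15 against ventral pieces, beside -0.48 and -0.53 over all genes tested. In the mutants the medians were -0.81 against dorsal pieces, with 9 of 11 lower, and -1.19 against ventral pieces, with 10 of 11 lower, beside -1.42 and -1.46 over all genes. By edgeR no mitotic kinesin was called. Genes that work with them in division overlapped likewise: 26 mitosis partners such as cyclins, Aurora kinases and centralspindlin partners summed to 3824 to 7073 CPM in axon and 2294 to 9235 CPM in stalk libraries. Kif22, a chromosome-bound motor on chr7:127027729-127042471 (minus strand), was the highest mitotic kinesin per kb of exon in each of the 6 groups, at 31.7 to 66.1 CPM per kb. In the mutants it was 1.05 ± 0.29 higher on the log2 scale in ventral than in dorsal pieces (edgeR adjusted p = 0.900).

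The mitotic kinesins were higher in the mutant than in the control ventral pieces, without a call. Their sum was 805, 618, 619 and 894 CPM in the 4 control and 1239, 1122, 1712, 1212 and 1544 CPM in the 5 mutant ventral pieces, so that the genotypes did not overlap. The mean was 734 ± 138 CPM in controls and 1366 ± 250 CPM in mutants (SD). Of the 11 members, 10 had a fold change above 0, with a median of 1.00 on the log2 scale beside -0.08 over all 16139 genes. The transport kinesins were above 0 for 8 of 12, with a median of 0.15. By edgeR with batch as a term, 0 of 33 kinesins were called (0% of all genes), as with DESeq2 (0 of 33, against 2.12% of all genes). At an unadjusted p under 0.05, 4 of 33 kinesins passed (3.19% of all genes), all 4 mitotic and higher in the mutant (1.28% of all genes).

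Kif11, the motor that pushes the spindle poles apart, lies on chr19:37376403-37421859 (plus strand) and had 105, 70.1, 145 and 110 CPM in control and 386, 134, 156, 306 and 294 CPM in mutant ventral pieces. One mutant library lay within the control range, and the log2 fold change was 1.30 ± 0.40 (unadjusted p = 0.00729 from edgeR, adjusted p = 0.999). Kif4, a chromosome-bound motor of the central spindle on chrX:100625737-100727214 (plus strand), had 36.3, 59.5, 13.7 and 51.1 CPM in control and 92.1, 80.2, 165, 94.2 and 134 CPM in mutant ventral pieces. It was the 1 kinesin of 33 whose genotypes did not overlap here, where 1.23% of all genes did so in either direction and 0.52% with the mutant higher (log2 fold change 1.53 ± 0.57). Pdzd11 on the opposite strand shares 15.1% of its exon bases. Kif20b, which acts in the last step of cell division (chr19:34922361-34975745, plus strand), had 113, 97.9, 60.9 and 80.4 CPM in control and 99.9, 179, 162, 143 and 217 CPM in mutant pieces (0.85 ± 0.37). Kif22 had 138, 59.2, 155 and 278 CPM in control and 378, 311, 361, 206 and 366 CPM in mutant pieces (1.00 ± 0.43). In both of these 1 mutant library fell into the control range. The adjusted p of Kif4, Kif20b and Kif22 was 0.999 as well.

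The other mitotic kinesins did not pass an unadjusted p of 0.05. Kif2c, which takes microtubules apart at centromeres, had a log2 fold change of 1.28 ± 0.75 in the ventral pieces, and Kif20a, a motor of cell cleavage that shares 29.3% of its exon bases with Cdc23, of 1.04 ± 0.73. Kif23, the centralspindlin motor, was at 0.42 ± 0.77. Kif18a, which aligns chromosomes, was at 0.47 ± 0.79, and Kif14, which helps to finish cleavage, at 0.52 ± 1.95. Kif18b had the widest error, at 4.21 ± 3.19, and the size of its fold was not measured, as 3 of 4 control ventral libraries were at 0. Kif15, a second motor that keeps the spindle bipolar, was the one below 0, at -0.30 ± 0.45. The count of 4 at an unadjusted p under 0.05 rested on single libraries: it was 1 without mutant embryo 5, and 2 without control embryo 1 or 3 or mutant embryo 2 or 3. Batch B alone (3 control and 2 mutant embryos) gave 2, with Kif11 at 1.44 and Kif20b at 1.18 on the log2 scale, and batch A holds 1 control embryo and gives no test.

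**Figure D3:**
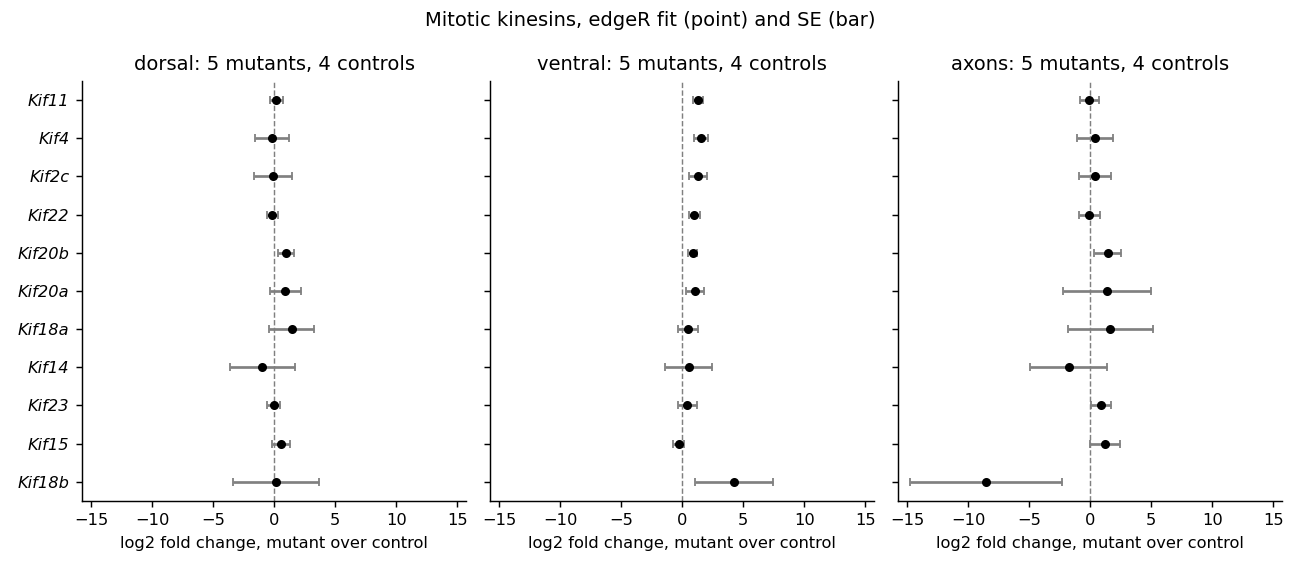
Log2 fold change (mutant over control) of the 11 mitotic kinesins in the dorsal, ventral and axon pieces, as points with bars of ± 1 SE from edgeR (n = 4 control and 5 mutant embryos). In the ventral pieces 10 of 11 points lie above 0, with a median of 1.00, against 6 in the dorsal and 7 in the axon pieces, and none was called.

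Other levels moved beside this ventral difference. The 26 mitosis partners summed to 5302 to 6188 CPM in control and 6507 to 9235 CPM in mutant ventral pieces, and 22 of them had a fold change above 0 (median 0.44), 6 with an unadjusted p under 0.05 and none called. The melanin and RPE markers, 12 in number, summed to 241 to 1203 CPM in control and 695 to 4013 CPM in mutant ventral pieces. The mesenchyme markers summed to 55.4 to 1305 CPM in control and 58.8 to 181 CPM in mutant ventral pieces, where control embryo 3 alone was high. The axon and ganglion cell markers summed to 490 to 2802 and 450 to 1022 CPM, where control embryo 2 alone was high. Their part in the level of the mitotic kinesins was not tested.

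In the dorsal pieces the kinesins were not called between genotypes, 0 of 33 by edgeR (0.0124% of all genes) and 0 of 33 by DESeq2 (3.3%). None was separated between the genotypes (2.92% of all genes). Of the mitotic kinesins 6 of 11 were above 0, with a median log2 fold change of 0.14, and their sum was 749 ± 302 CPM in control and 922 ± 186 CPM in mutant dorsal pieces. Of the mitosis partners 23 of 26 were above 0 (median 0.26). Of the transport kinesins 3 of 12 were above 0, with a median of -0.46. One kinesin passed an unadjusted p of 0.05 (5.35% of all genes): Kif5a, which had 0.333, 41.9, 0 and 0.606 CPM in the 4 control and 0 in the 5 mutant pieces, a difference that rests on control embryo 2. Kif1a differed by -0.26 ± 1.11 on the log2 scale, and its mutant values of 14.8 to 330 CPM spanned the control values. Markers of other cells also differed in sum between the genotypes there: the mesenchyme markers summed to 1160 to 10389 CPM in control and 55.6 to 373 CPM in mutant dorsal pieces (11 of 11 below 0), and the stalk and astrocyte progenitor markers to 2736 to 3607 and 1089 to 1865 CPM (9 of 12 below 0). The melanin and RPE markers summed to 43.5 to 5318 CPM in control and 3363 to 13097 CPM in mutant dorsal pieces, with 11 of 11 tested above 0. Their part in the kinesin levels was not tested.

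In the axon pieces 0 of 33 kinesins were called by edgeR (0% of all genes), 1 passed an unadjusted p of 0.05 (3.55%) and none was separated (1.28%). The 1 was Kif5b, higher in the mutant by 0.69 ± 0.30 (adjusted p = 0.880). Against a control range of 261 to 416 CPM, the mutant libraries at 381 and 412 CPM lay inside and those at 500, 728 and 748 CPM above. Kif1a differed by -0.09 ± 0.34 and Kif5c by 0.24 ± 0.49 on the log2 scale, and Kif1b by 0.54 ± 0.43. The mitotic kinesins had 7 of 11 above 0 and a median of 0.37, beside -0.29 over all genes, and summed to 721 ± 141 CPM in control and 798 ± 316 CPM in mutant axons. DESeq2 called 2 of 33 here (Kif7 and Kif18b), where it called 8.23% of all genes. Kif18b had 11.1, 10.6, 0.119 and 21.4 CPM in control and 5.15, 0.341, 60.7, 0 and 0 CPM in mutant axons. Its mutant values thus spanned the control values. Kif7, the cilium-tip regulator of hedgehog signalling, had 24.6, 4.20, 0.239 and 41.2 CPM in control and 0.229, 0, 0.408, 0.700 and 0 CPM in mutant axons, so the lowest control fell among the mutants.

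The stalk pieces were compared with each other within genotypes. In controls edgeR called 0 of 33 kinesins between ventral and dorsal pieces (0% of all genes), with 1 at an unadjusted p under 0.05 (2.54%), which was Kif1a at 1.57 ± 0.38 (adjusted p = 1). In mutants it also called 0 of 33 (0.0371% of all genes), with 3 at an unadjusted p under 0.05 (4.04%), namely Kif1a at 1.70 ± 0.50, Kif22 at 1.05 ± 0.29 and Kif1b at 0.78 ± 0.30 (adjusted p 0.900 to 0.927). DESeq2 called 3 in each, with Kif1a and Kif16b in both, Kif1c in controls (3.94% of all genes) and Kif22 in mutants (6.23% of all genes).

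Whether the genotype difference itself differed between regions was tested in a model of all 27 libraries with the embryo as a block. EdgeR called 0 of 33 kinesins between ventral and dorsal pieces (0.00612% of all genes), 0 between axons and dorsal pieces (0.0122%) and 0 between axons and ventral pieces (0%). At an unadjusted p under 0.05 there were 0 (2.29% of all genes), 1 (4.95%) and 1 (3.89%). The first of these was Kif5b, whose mutant difference was 1.21 ± 0.42 larger in axons than in dorsal pieces (adjusted p = 0.855), and the second was Kif7, at -10.97 ± 4.22 for axons against ventral pieces (adjusted p = 1). The Kif7 value rests on groups near the floor, with 0 to 1.94 CPM in control ventral pieces and 0 to 0.700 CPM in mutant axons. Its mutant ventral pieces ran from 0 to 43.6 CPM. DESeq2 called 0 of 33 (4.49% of all genes), 1 of 33, Kif5b (12.5%), and 2 of 33, Kif7 and Kif18b (12.1%). For Kif1a the 3 differences were 0.0046 ± 0.66, -0.03 ± 0.70 and -0.03 ± 0.67 on the log2 scale. The mitotic kinesins had a median of 1.03 for ventral against dorsal pieces, with 8 of 11 above 0, beside -0.11 over all genes, so that their higher ventral level in the mutant was not shown to be particular to that region.

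**Figure D4:**
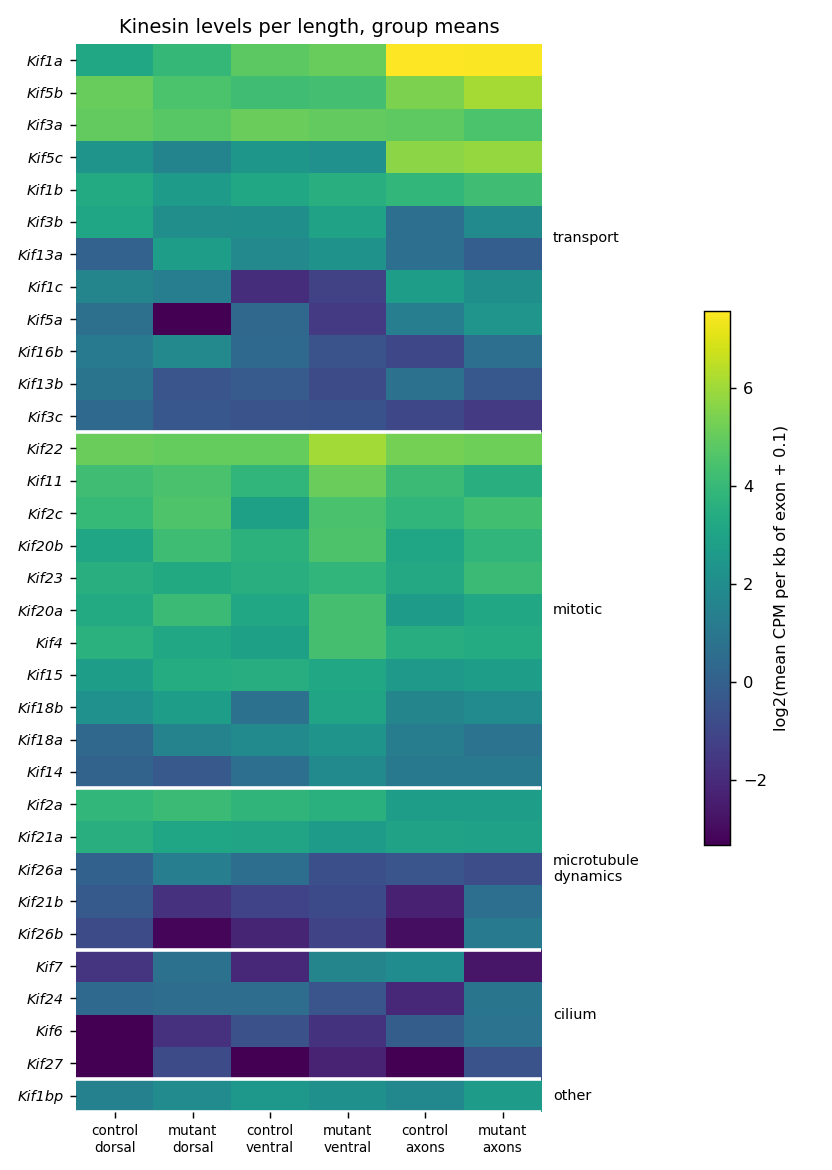
Heat map of log2(mean CPM per kb of exon + 0.1) for the 33 tested kinesins, in rows by role, in the 6 region-by-genotype groups in columns. Kif1a in the axons is the highest entry (191 CPM per kb in control and 184 in mutant), and Kif22 is the highest mitotic entry of every group.

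The kinesins of microtubule dynamics and of the cilium varied widely in level. Kif2a, which takes microtubule ends apart in growing axons, had group means from 43.4 ± 48.1 CPM in control axons to 111 ± 45.4 CPM in mutant dorsal pieces, and shares 19.2% of its exon bases with Dimt1. Kif21a, which slows microtubule growth, had group means of 40.4 to 74.6 CPM, and Kif21b of 1.22 to 17.7 CPM. Kif26a and Kif26b, atypical kinesins that bind microtubules without moving, stayed at group means of at most 31.1 CPM. Kif7 was between 0 and 43.6 CPM over all libraries, at means of 0.267 to 17.6 CPM by group, and 20.3% of its exon bases are shared with antisense genes. Kif1bp, the kinesin-binding protein, had group means of 12.9 to 30.5 CPM and was not called in any comparison. The cilium kinesins summed to at most 85.2 CPM in any library. None of the 9 tested members of these groups was called by edgeR in any of the 12 comparisons.

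Partners of the motors were counted in the same fits. Of 15 adaptors and light chains, 14 were tested, and of 19 dynein and dynactin genes, the motor that walks the other way, 17 or 18. None of either list was called in any of the 12 comparisons. In mutant axons against ventral pieces 4 of 14 adaptors were above 0 (median -0.75) and 8 of 18 dynein and dynactin genes (median -0.12), beside a median of -1.46 over all genes. The adaptors summed to 443 to 1389 CPM in axon and 507 to 1196 CPM in stalk libraries, and dynein with dynactin to 2212 to 3240 and 1862 to 2805 CPM. Neither sum set the axons apart as the summed transport kinesins did, a sum led by Kif1a. Gene by gene the transport kinesins were split. In mutant axons 6 of 12 were above 0 and 6 below, both against ventral (median 0.09) and against dorsal pieces (median 0.20). Of 4 kinesin-family motors whose symbols fall outside the rule (Cenpe, Kifc1, Kifc2 and Kifc3), 4 were tested and none was called.

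The genes most like Kif1a were sought among 7168 protein-coding genes with a mean of at least 20 CPM, by Pearson's r of log2(CPM + 1) over the 27 libraries. The 5 highest were Cplx2 (0.878), a regulator of vesicle release, Nefm (0.805), Cox6a1 (0.797), a subunit of cytochrome oxidase, Ftl1 (0.793), a ferritin chain, and Kif5c (0.790). Among kinesins Kif1b (0.636) and Kif5b (0.547) came next. The libraries share regions and embryos, and the axon libraries had fewer detected genes on average, so these values describe likeness over this set.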

How the data were processed

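The E14 libraries were made by Geo-seq, in which laser-captured tissue is reverse transcribed, amplified by PCR and sequenced as single-end reads without molecular identifiers. The authors deposited raw counts per gene, made with Seq2Science at default settings by aligning to mm10 with STAR and counting with HTSeq; the submitters' notes also name Salmon. No scaling had been applied, and neither tool versions nor whether counting used strand are given in the sources used here, so a member and its antisense partner cannot be told apart. Of 55487 identifiers, 55227 matched GENCODE M21, and the other 260 held 0.00287% of the counts. Tissue of an earlier stage was not analysed here.

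Groups, batches and embryos came from the labels. Batch A held 1 control and 3 mutant embryos, and batch B 3 and 2. No 2 libraries held identical counts (0 pairs). Genes with over 10 counts in 3 or more libraries were tested with the two-sided quasi-likelihood F-test of edgeR 4.0.16 (R 4.3.3, robust, TMM scaling). Genotypes were compared within a region with batch as a term, regions within a genotype with the embryo as a block, and their interaction over 27 libraries with the embryo as a block. A call needed a Benjamini-Hochberg adjusted p under 0.05 over all genes tested and an absolute log2 fold change over 0.58. SE was the fold change over the square root of F and is approximate, and errors of levels are SD over embryos. DESeq2 1.42.0, other scalings, filters, blocks and left-out embryos were alternatives. The scripts were tested on simulated data. At these totals a count of 0 allows up to 3 counts.

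The labels give the 3 pieces of an embryo 1 number, which pairs them. Deviations of same-embryo pieces correlated at 0.0531 to 0.115 (control) and 0.0102 to 0.108 (mutant) for dorsal with ventral, and at -0.0195 to 0.0718 for axons with either in controls. Pieces of different embryos gave -0.0801 to 0.0706 (control) and -0.0359 to 0.0282 (mutant) for dorsal with ventral. They gave -0.0759 to 0.0736 for axons with dorsal in controls. For dorsal with ventral, the median was 0.0888 within and -0.0401 between control embryos, and 0.0369 and -0.0140 in mutants. The medians were thus higher within embryos, but the ranges overlap, so the pairing rests on the labels. Control and mutant embryos of 1 number share only the number.

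Named genes were Kif1a, called kinesins, up to 3 kinesins per comparison and direction with the smallest unadjusted p under 0.05, and fixed core members of each role; from other lists, called genes only. The members and gene lists were chosen with earlier results of these data known, and other genes are named where the text says so or as markers at 0. Sncg, Tubb3, Dcx and Isl1 were not called and are named outside this rule, with their values known. Positions are GENCODE's on mm10, and upstream sequences RefSeq's.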

Additional observations from a re-analysis of the deposited data

Results flagged for a closer look

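Within groups of 4 or 5 libraries, the sample at either end was set against Dixon's limit for a single far value, over 102 groups of values from 14 kinesins and the summed classes. It was passed in 8 groups, each time by the highest value. For normally distributed values it is passed in about 1 group in 20. That share need not hold for CPM values, some of them at 0, and the groups share libraries. The summed transport kinesins were 1132 CPM in control dorsal embryo 2, where the other 3 lay at 681 to 726 CPM. That library also had the highest axon and ganglion cell marker sum of its group, 2569 CPM. Kif5b was 221 CPM in control ventral embryo 2 (next 135 CPM) and 331 CPM in mutant ventral embryo 4 (next 143 CPM). Kif5c was 63.6 CPM in mutant dorsal embryo 3, with 16.2 CPM as the next value. Kif2c was far above the others in both stalk pieces of mutant embryo 3, at 287 CPM in the dorsal piece (next 78.3 CPM) and 250 CPM in the ventral piece (next 71.7 CPM). Kif7 was 3.54 CPM in control dorsal embryo 2 (next 0.269 CPM) and 31.7 CPM in mutant dorsal embryo 4 (next 4.81 CPM).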

How the results depend on the processing

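DESeq2, RLE size factors, no filter on low counts, other blocks and left-out embryos were tried. DESeq2 moved 9 counts of called kinesins from edgeR's 0, 1 or 2: to 2 for genotype in axons, 3 for control ventral against dorsal, 3 and 5 for control axons against dorsal and ventral, 3 for mutant ventral against dorsal, 7 and 8 for mutant axons against dorsal and ventral, and 1 and 2 for the interactions of axons with dorsal and ventral; the cause was not tested. Without the filter Kif1a was called in control axons against dorsal (count 1, adjusted p = 0.0153) and ventral pieces (count 1, adjusted p = 0.0148). Without the replicate block, the count was 1 for control (Kif1a) and 2 for mutant axons against dorsal pieces (Kif1b and Kif5b). Leaving out 1 embryo gave 0 to 1 for mutant axons against dorsal and 0 to 1 against ventral pieces. Blocking the genotype comparisons by replicate number left 0, 0 and 0 calls in dorsal, ventral and axon pieces, and batch B alone gave 0. RLE size factors changed no count, and moved the median of all genes by over 0.1 only for control axons against dorsal pieces, from -0.48 to -0.58. A mitotic to transport difference of mean log2(CPM + 1) gave 1.02, 1.60, 1.32, 2.46, 0.40 and 0.32 for control and mutant dorsal, ventral and axon groups in turn, without a negative value for the axons. Leaving Kif1a out of the transport sum, chosen after seeing the data, gave 1.27 in mutant ventral and -0.69 and -0.93 in control and mutant axons. Kif1a's log2 genotype difference changed sign in each region. In dorsal pieces it was 0.76 without batch, 0.0204 with the replicate block and -1.35 to 0.85 over left-out embryos. Ventral pieces gave -0.38 in batch B and -0.40 to 0.55 over left-out embryos. Axons gave 0.20 with the replicate block and -0.37 to 0.18 over left-out embryos. The interactions of Kif1a changed sign too. Ventral against dorsal was -0.46 without the block and -0.40 to 0.34 over left-out embryos. Axons against dorsal was 0.0369 with DESeq2 and with RLE, and -0.50 to 0.46 over left-out embryos. Axons against ventral was 0.013 with DESeq2, 0.0128 with RLE and -0.43 to 0.23 over left-out embryos. Depth limits members near the floor of 3 counts, such as Kif5a in mutant dorsal pieces, for which only bounds exist.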
